A study of Mus musculus with 18 samples.

Results

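The gene set described here holds the metalloproteinases of the MMP, ADAM, ADAMTS and ADAMTS-like families and their TIMP inhibitors, measured by RNA-seq in hearts of mice with myocardial infarction (MI) or a sham operation. Members were taken by name, as every row of the deposited gene table whose symbol is Mmp, Timp, Adam, Adamts or Adamtsl followed by a number and at most 1 letter, which gave 47 of 12988 genes. They are 14 of the 22 protein-coding Mmp genes of the GENCODE M21 annotation, 4 of 4 Timp, 11 of 33 Adam, 14 of 19 Adamts and 4 of 5 Adamtsl genes. Newborn mice were given, under the skin, an AAV9 vector (adeno-associated virus, serotype 9), either with the mouse gene of the secreted growth factor FGF17 or as a control. At 8 weeks of age the left anterior descending coronary artery was tied for good, or sham surgery left it open. The 5 groups are MI day 14 with the Fgf17 vector (MI day 14 FGF17, 3 libraries), MI day 14 with the control vector (MI day 14 control, 3), MI day 3 with the Fgf17 vector (MI day 3 FGF17, 4), MI day 3 with the control vector (MI day 3 control, 4) and sham with the control vector (4). All groups thus carry an AAV9 vector. The sham group has no stated day, no sham group received Fgf17, and neither the strain nor the promoter of the vector is given in the labels. Whether the libraries of a group are different animals is not said in the labels, so p-values measure the spread between libraries, part of which may be technical. Libraries are called by the number in their column name.

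Matrix metalloproteinases (MMPs) are zinc-dependent enzymes, secreted or held at the cell membrane as inactive precursors, that cut collagens, gelatin, elastin, proteoglycans and other matrix proteins. The 4 tissue inhibitors of metalloproteinases (TIMPs) bind the active site of these enzymes one to one. ADAMs are membrane proteins, several of which release the outer part of growth factors, cytokines and receptors from the cell surface, ADAMTS proteins are secreted relatives that cut proteoglycans and process procollagens, and ADAMTS-like proteins share their matrix-binding parts but have no protease domain. After MI, leukocytes, macrophages and fibroblasts of the wound make many of these proteins, and the balance of enzymes and inhibitors is known to shape how the scar forms and how the ventricle dilates.

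The AP-1 site, the binding sequence of Fos and Jun dimers, is a known control element of several MMP promoters. Of 35 RefSeq promoters of 31 members (build GRCm38.p6, 250 bases before to 50 after the gene start), 4 held TGANTCA on either strand, against 7.81% of 32851 promoters of all genes. The 4 genes concerned rose at day 3, as did 29 of the 42 tested members and 45.9% of all genes, so the rise does not set them apart. Other members, among them Mmp2, Mmp9, Mmp19, Adam9, Adam12, Adamts4 and Adamts5, had no promoter in the set used and were not searched. TTCNNNGAA, the STAT motif, was found in 2 member promoters, which are overlapping windows of Mmp23 that hold the same match, against 8.30% of all promoters. TTGCNNAA, the C/EBP motif, was found in 6 (Adam8, Adam15, Mmp3, Mmp8, Mmp12 and Mmp27), against 10.8%. Only the Mmp3 window held matches to different motifs, AP-1 and C/EBP, and these share no bases. Mmp12 has more than 1 listed start, and its AP-1 and C/EBP matches lie before different ones. The 150 bases before the start are printed 5′ to 3′ with the TGANTCA match in capitals.
Mmp13: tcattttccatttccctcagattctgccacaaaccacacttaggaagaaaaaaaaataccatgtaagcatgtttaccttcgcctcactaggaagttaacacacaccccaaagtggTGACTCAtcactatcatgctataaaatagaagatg
Mmp12: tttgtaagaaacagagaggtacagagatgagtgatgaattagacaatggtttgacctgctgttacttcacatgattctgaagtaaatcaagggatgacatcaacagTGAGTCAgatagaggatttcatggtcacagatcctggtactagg
Mmp3: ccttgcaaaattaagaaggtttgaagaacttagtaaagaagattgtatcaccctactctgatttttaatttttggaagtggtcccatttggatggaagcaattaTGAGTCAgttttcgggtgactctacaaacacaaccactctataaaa
Adam19: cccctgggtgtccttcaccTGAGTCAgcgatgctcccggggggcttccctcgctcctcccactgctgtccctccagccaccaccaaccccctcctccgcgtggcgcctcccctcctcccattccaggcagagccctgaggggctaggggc
Timp1: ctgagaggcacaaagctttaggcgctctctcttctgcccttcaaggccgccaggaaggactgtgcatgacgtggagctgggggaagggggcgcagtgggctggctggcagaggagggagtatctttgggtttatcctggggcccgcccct
The Mmp13 stretch is chr9:7272364-7272513, that of Mmp12 is chr9:7347224-7347373 before its second RefSeq start, and that of Mmp3 is chr9:7445672-7445821, all on the plus strand. The Adam19 stretch is chr11:46055834-46055983 and the Timp1 stretch, from the member with the largest change, is chrX:20870016-20870165, both on the plus strand. The match began 35 bases before the start in Mmp13, 44 in Mmp12, 46 in Mmp3 and 131 in Adam19. The Timp1 window, 250 bases before to 50 after the start, held no match to any of the 3 motifs. A match describes letters and is no evidence of binding.

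The values are FPKM (fragments relative to transcript length and to all mapped fragments), and the depth of each library is unknown. The sum of FPKM over the table was 301085 to 362004 per library, and the share of the 13 mitochondrially encoded genes in it 18.8% to 35.1% in the MI libraries and 35.6% to 41.7% in the sham libraries. Across genes, log2 values of 2 libraries correlated with a Pearson's r of 0.971 to 0.987 within groups and 0.887 to 0.984 between groups. Fgf17 itself was at 45.3 to 93.4 FPKM in the 7 libraries with its vector and at most at 0.380 FPKM in the other 11. In bulk RNA, fewer cells of a type and less RNA per cell cannot be told apart, and this holds for every difference below.

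Changes are given as log2 changes of FPKM + 0.5 ± standard error from 1 limma model over all libraries, with p-values adjusted by the Benjamini-Hochberg method over all 12052 genes tested and a threshold of 0.05. This scale understates the change of genes with low FPKM. Of the 47 members, 42 passed the filter of 1 FPKM in 3 libraries. Mmp8, Mmp9, Mmp13, Mmp27, Adam12 and Adamts4 needed their day 3 libraries to pass, Adam1a its day 14 libraries and Adam22 its sham libraries. That these members are high in those groups is thus partly fixed by the filter. At MI day 14, 29 of the 42 tested members rose against sham and 0 fell, where 41.0% of all genes tested rose and 9.00% fell. At MI day 3, 29 rose and 4 fell, where 45.9% of all genes rose and 15.0% fell. The median change of the members was 0.84 at day 14 and 0.83 at day 3, against 0.25 for all genes at both days. Both comparisons use the same 4 sham libraries.

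A different scaling of the libraries moves the whole table. With median-of-ratios scaling the median of all genes was 0.01 at day 14 and -0.01 at day 3, the genes called were 2977 higher and 2688 lower at day 14 against 4940 and 1085 as reported, and 3645 higher and 3592 lower at day 3 against 5535 and 1802. Under it, 26 members rose and 1 fell at day 14, and 27 rose and 8 fell at day 3. With the mitochondrially encoded genes, whose share was higher in every sham library, left out and the libraries rescaled, 4121 genes were higher and 1532 lower at day 14, and 4226 higher and 2827 lower at day 3. Of the members, 28 then rose and 1 fell at day 14, and 27 rose and 6 fell at day 3. The changes against sham below, which carry no such scaling, include the median shift of 0.25. No member that was called changed its direction under any setting run.

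**Figure D1:**
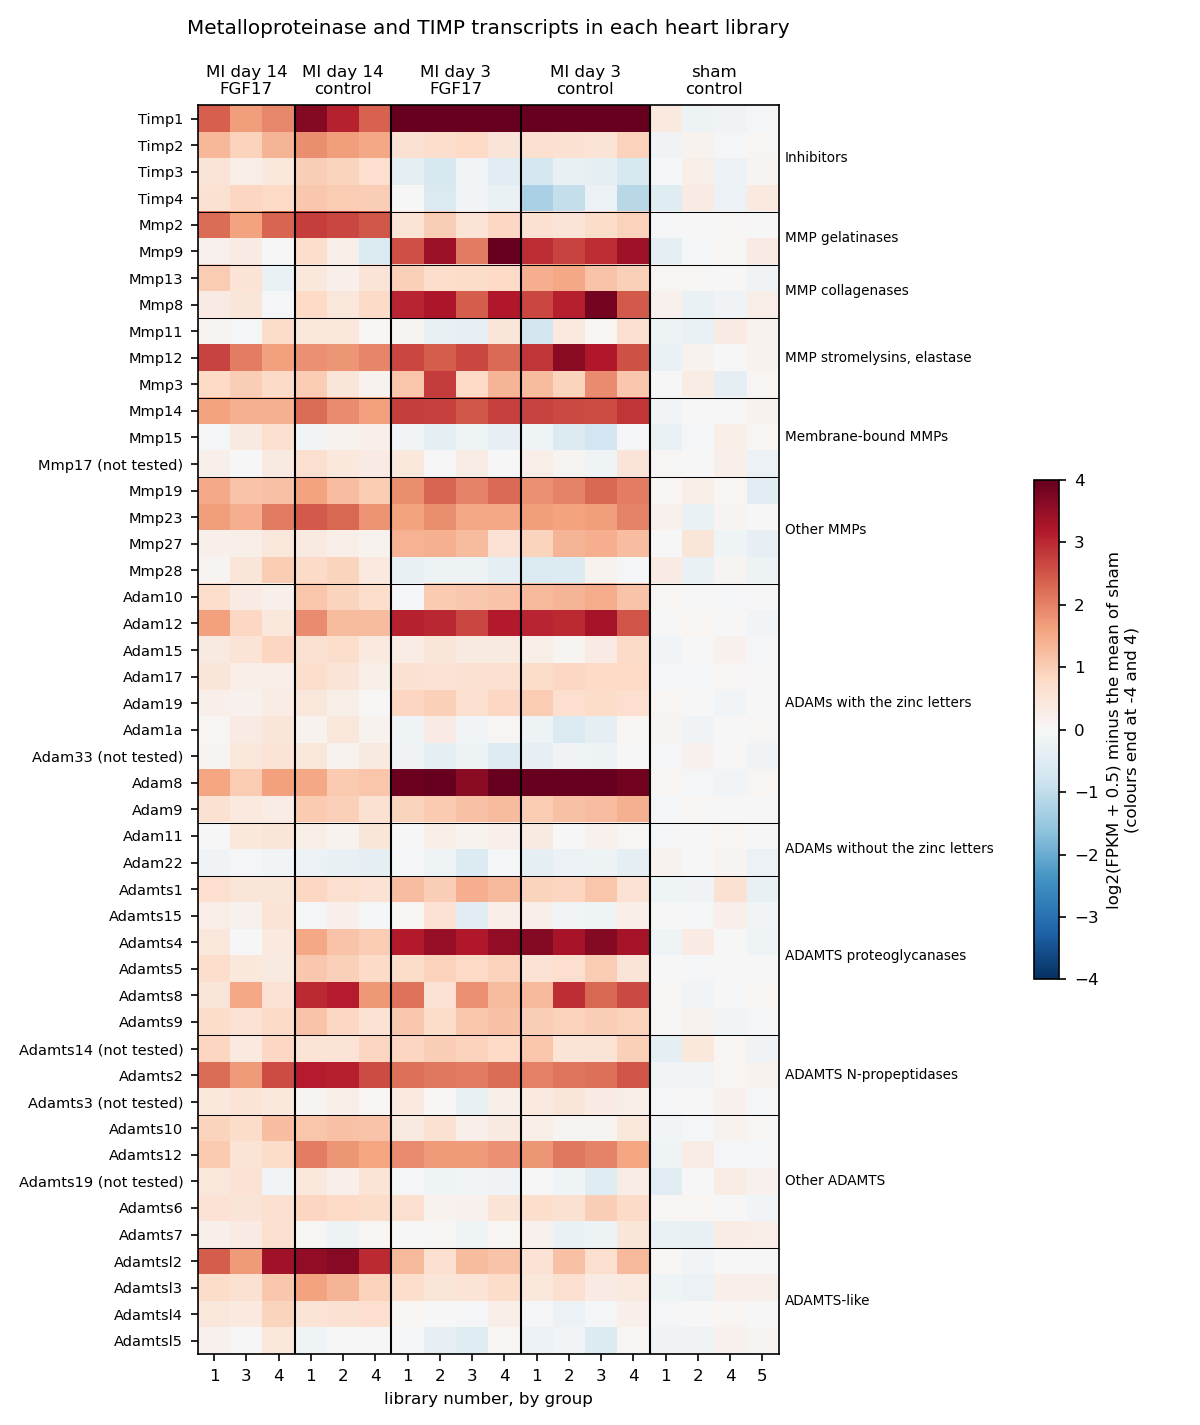
Heat map of the 47 members (rows, grouped by role) in the 18 libraries (columns, grouped by condition). Colour is log2(FPKM + 0.5) minus the mean of the 4 sham libraries, and the 5 members under the filter are marked as not tested. Timp1, Adam8 and Adamts4 are darkest at day 3, and Adamtsl2, Adamts2 and Mmp2 are darker at day 14 in control hearts than at day 3.

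The 4 inhibitors followed different courses. Timp1 and Timp2 rose at both days, whereas Timp3 and Timp4 rose at day 14 and fell at day 3. Timp1 (ENSMUSG00000001131.11, chromosome X, 20870166 to 20874735, plus strand of GRCm38), a secreted inhibitor induced by cytokines, changed more than any other member at day 3. Timp1 had 31.1, 18.9 and 22.1 FPKM in the MI day 14 FGF17 hearts and 75.6, 50.6 and 30.7 FPKM in the MI day 14 control hearts. It had 260.4, 398, 235 and 284 FPKM in the MI day 3 FGF17 hearts, 290.2, 302, 361 and 345 FPKM in the MI day 3 control hearts and 7.36, 4.76, 4.95 and 5.35 FPKM in the sham hearts. No library of any MI group overlapped sham, and the day 3 libraries lay several times above those of day 14. The log2 change against sham was 3.04 ± 0.25 (adjusted p = 6.81e-08) at day 14 and 5.75 ± 0.23 (adjusted p = 2.6e-12) at day 3, and day 14 against day 3 it was -2.71 ± 0.25 (adjusted p = 4.52e-07).

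Timp2 (ENSMUSG00000017466.9, chromosome 11, 118301069 to 118355740, minus strand) inhibits MMPs and, together with MMP14, takes part in the activation of pro-MMP2. Timp2 had 78.2, 59.2 and 81.5 FPKM in the MI day 14 FGF17 hearts and 114, 100.3 and 92.7 FPKM in the MI day 14 control hearts. It had 47.8, 50.5, 54.5 and 44.4 FPKM in the MI day 3 FGF17 hearts, 49.2, 47.6, 46.1 and 59.8 FPKM in the MI day 3 control hearts and 28.3, 34.4, 30.0 and 32.2 FPKM in the sham hearts. Every MI library exceeded every sham library, and the day 14 control libraries exceeded all day 3 libraries. The change was 1.70 ± 0.12 (adjusted p = 1.8e-08) at day 14 against sham, 0.69 ± 0.11 (adjusted p = 4.41e-05) at day 3 against sham and 1.01 ± 0.12 (adjusted p = 7.34e-06) between day 14 and day 3.

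Timp3 (ENSMUSG00000020044.13, chromosome 10, 86300372 to 86349506, plus strand), the inhibitor that binds to the matrix and also blocks ADAM17, was the most abundant member in sham hearts. Timp3 had 99.7, 82.2 and 92.7 FPKM in the MI day 14 FGF17 hearts and 137, 127 and 109.7 FPKM in the MI day 14 control hearts. It had 53.4, 44.3, 64.4 and 51.3 FPKM in the MI day 3 FGF17 hearts, 42.3, 55.6, 53.7 and 44.4 FPKM in the MI day 3 control hearts and 65.6, 80.3, 58.0 and 73.8 FPKM in the sham hearts. All day 14 libraries lay above all sham libraries, and the day 3 control libraries all lay below the lowest sham library. The change was 0.84 ± 0.14 (adjusted p = 9.09e-05) at day 14 and -0.50 ± 0.13 (adjusted p = 0.00278) at day 3 against sham.

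Timp4 (ENSMUSG00000030317.8, chromosome 6, 115241892 to 115252205, minus strand) is the TIMP known for its expression in heart. Timp4 had 7.85, 9.47 and 8.95 FPKM in the MI day 14 FGF17 hearts and 11.2, 10.6 and 10.3 FPKM in the MI day 14 control hearts. It had 4.90, 3.18, 4.59 and 4.10 FPKM in the MI day 3 FGF17 hearts, 1.74, 2.31, 4.20 and 2.02 FPKM in the MI day 3 control hearts and 3.39, 6.41, 4.17 and 6.71 FPKM in the sham hearts. Day 14 libraries all exceeded sham, and 3 of the 4 day 3 control libraries were below the lowest sham library. Its change was 1.03 ± 0.23 (adjusted p = 0.00151) at day 14 against sham, -0.90 ± 0.21 (adjusted p = 0.00158) at day 3 against sham and 1.93 ± 0.23 (adjusted p = 8.1e-06) between the days. Timp1, Timp3 and Timp4 each lie within a synapsin gene on the other strand (Syn1, Syn3 and Syn2), and Timp2 overlaps Cep295nl on the same strand. Whether the counting used strand is not given in the sources used here, so reads of such partners cannot be told apart.

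**Figure D2:**
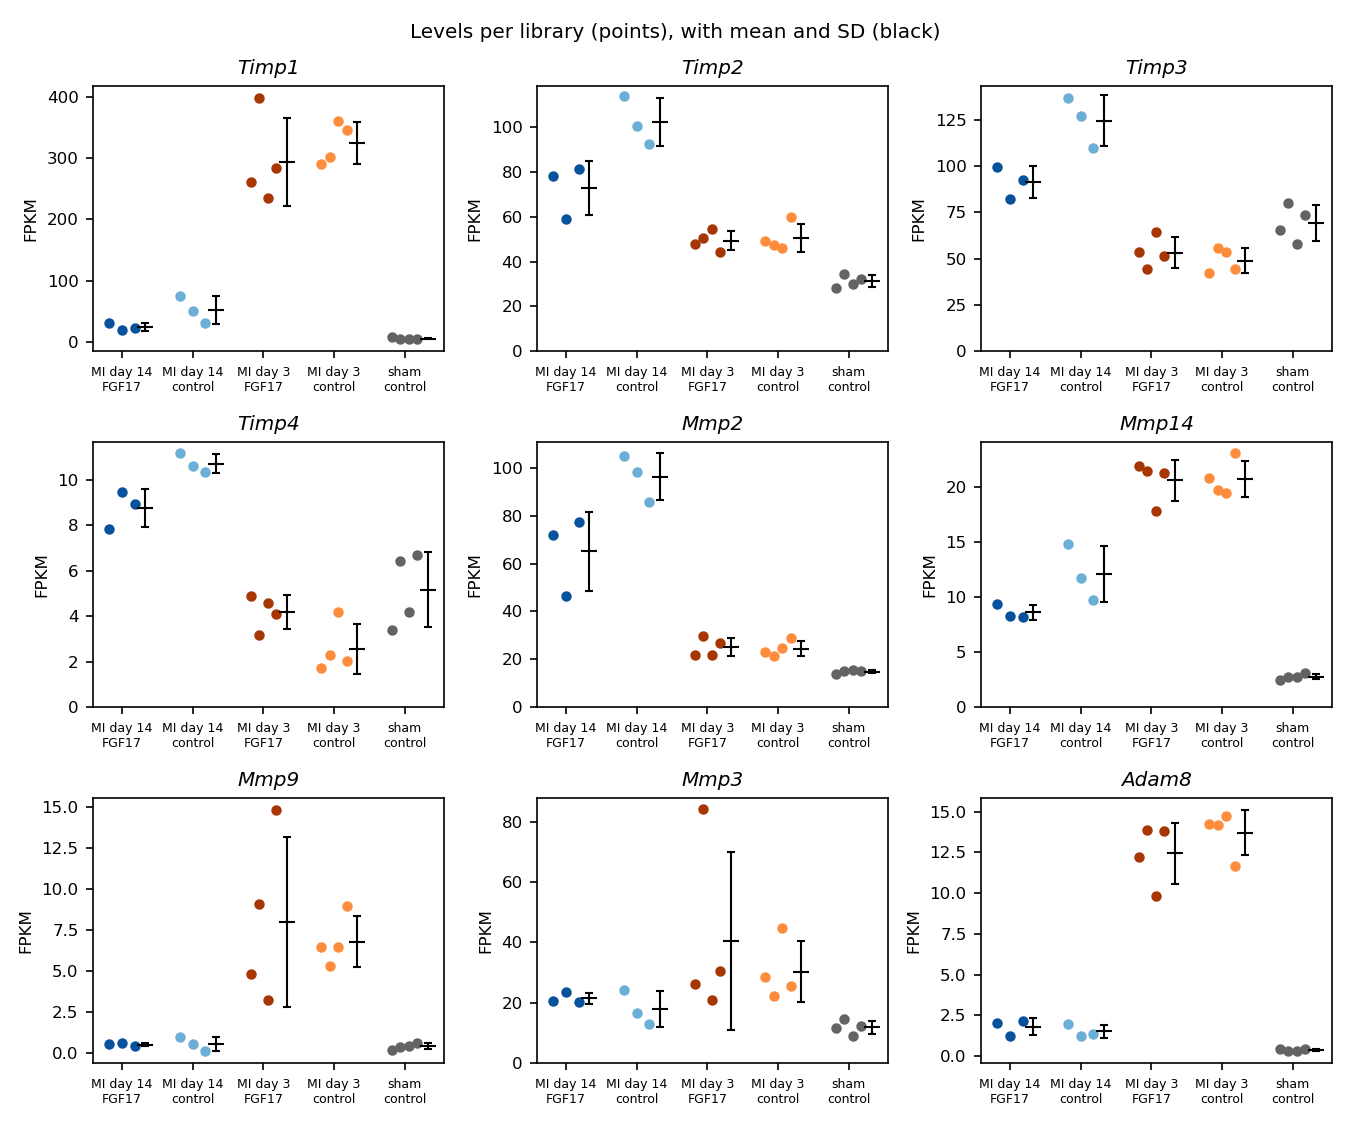
FPKM per library (points) of 9 members in the 5 groups, with the mean and SD in black beside each group. Timp1, Mmp9 and Adam8 are highest at day 3, Timp2, Timp3, Timp4 and Mmp2 at day 14, and in MI day 14 the FGF17 points of Timp2, Timp3, Timp4, Mmp2 and Mmp14 all lie below the control points.

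The make-up of the summed TIMP transcripts differed by day. Summed over the 4 genes, TIMPs reached 197 ± 24.5 FPKM in the MI day 14 FGF17 hearts, 290.0 ± 47.2 in the MI day 14 control hearts, 401 ± 64.0 in the MI day 3 FGF17 hearts, 427 ± 37.9 in the MI day 3 control hearts and 111 ± 12.9 in the sham hearts (mean ± SD). Timp1 made up 10.8 to 14.3% of this sum in MI day 14 FGF17, 12.6 to 22.4% in MI day 14 control, 65.6 to 80.2% in MI day 3 FGF17, 74.1 to 77.6% in MI day 3 control and 3.79 to 7.03% in sham. The bulk of the sum was thus Timp1 at day 3 and Timp3 with Timp2 in the other groups.

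The 14 Mmp genes summed to 130.1 ± 18 FPKM in the MI day 14 FGF17 hearts, 161 ± 21.4 in the MI day 14 control hearts, 132 ± 37.3 in the MI day 3 FGF17 hearts, 123 ± 13.1 in the MI day 3 control hearts and 47.9 ± 2.18 in the sham hearts. TIMPs as a share of TIMP plus MMP were 58.6 to 61.7% in MI day 14 FGF17, 63.6 to 65.0% in MI day 14 control, 72.9 to 78.3% in MI day 3 FGF17, 76.9 to 78.7% in MI day 3 control and 66.7 to 71.8% in sham. This share, of transcripts and not of protein or activity, was lower than in sham in every day 14 library and higher in every day 3 library. These sums were not tested.

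**Figure D3:**
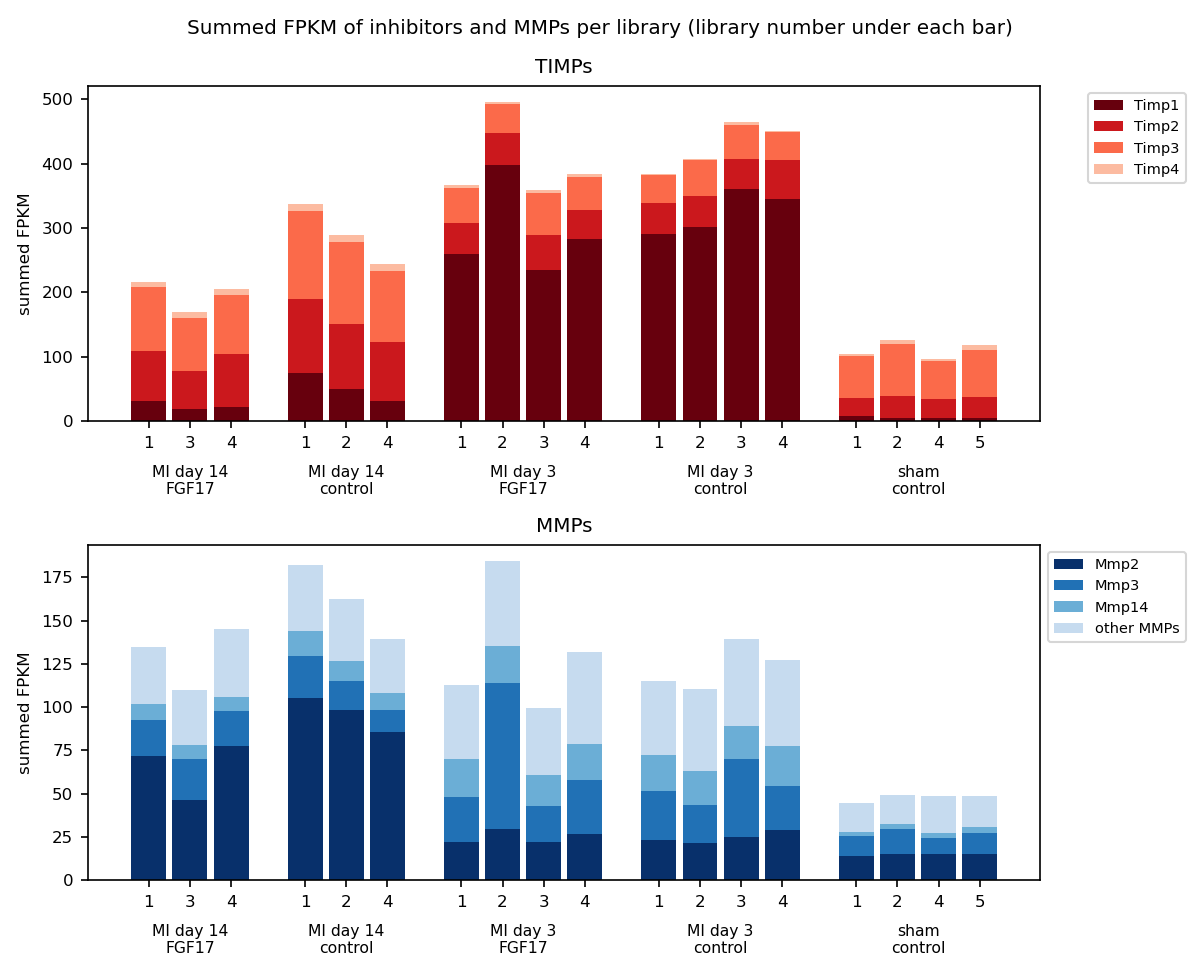
Summed FPKM per library, with the library number under each bar, for the 4 TIMPs (top, stacked by gene) and the 14 MMPs (bottom, stacked as Mmp2, Mmp3, Mmp14 and the other MMPs). Timp1 fills most of the day 3 TIMP bars and Mmp2 is the largest block of the day 14 MMP bars. The tallest MMP bar, MI day 3 FGF17 library 2, has a large Mmp3 block.

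Both gelatinases rose at day 3, and Mmp2 also rose at day 14 and was higher there. Mmp2, gelatinase A (ENSMUSG00000031740.8, chromosome 8, 92827291 to 92853420, plus strand), which fibroblasts make, was the most abundant MMP at day 14. Mmp2 had 71.7, 46.4 and 77.5 FPKM in the MI day 14 FGF17 hearts and 105, 98.2 and 85.5 FPKM in the MI day 14 control hearts. It had 22.0, 29.8, 21.8 and 27.0 FPKM in the MI day 3 FGF17 hearts, 23.0, 21.3, 25.0 and 28.8 FPKM in the MI day 3 control hearts and 14.0, 15.0, 15.4 and 15.2 FPKM in the sham hearts. The day 14 libraries all lay above those of day 3, and those of day 3 above sham. Its log2 change was 2.65 ± 0.15 (adjusted p = 2.49e-09) at day 14 and 0.69 ± 0.14 (adjusted p = 0.00046) at day 3 against sham, and 1.95 ± 0.15 (adjusted p = 1.1e-07) for day 14 against day 3. Mmp2 was 57.6 to 61.3% of the summed Mmp FPKM in MI day 14 control hearts, 17.9 to 22.6% in MI day 3 control hearts and 30.3 to 31.7% in sham hearts.

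Mmp9, gelatinase B (ENSMUSG00000017737.2, chromosome 2, 164940780 to 164955850, plus strand), is stored in neutrophil granules and also made by macrophages. Mmp9 had 0.512, 0.608 and 0.393 FPKM in the MI day 14 FGF17 hearts and 0.940, 0.552 and 0.0978 FPKM in the MI day 14 control hearts. It had 4.82, 9.06, 3.25 and 14.8 FPKM in the MI day 3 FGF17 hearts, 6.44, 5.32, 6.45 and 8.93 FPKM in the MI day 3 control hearts and 0.196, 0.371, 0.422 and 0.631 FPKM in the sham hearts. Its level was high at day 3 in both vector groups and overlapped sham at day 14. It rose at day 3 by 3.01 ± 0.34 (adjusted p = 8.14e-07) and was lower at day 14 than at day 3, with -2.89 ± 0.37 (adjusted p = 1.52e-05). At day 14 its change against sham was 0.12 ± 0.37, with an adjusted p of 0.811.

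Both collagenases in the table rose at day 3. Mmp8, the neutrophil collagenase, was at 0.320 to 0.551 FPKM in MI day 14 control, 2.84 to 7.99 FPKM in MI day 3 control and 0 to 0.222 FPKM in sham libraries. Its change was 3.02 ± 0.25 (adjusted p = 1.67e-08) at day 3. At day 14 it was 0.66 ± 0.27 (adjusted p = 0.0498), a call lost in 18 of 28 settings, among them the one without MI day 14 control library 1 (adjusted p = 0.143). Mmp13, collagenase 3, was at 0.544 to 0.793 FPKM in MI day 14 control, 1.28 to 2.18 FPKM in MI day 3 control and 0.329 to 0.462 FPKM in sham libraries. It rose by 1.28 ± 0.20 (adjusted p = 3.14e-05) at day 3 and was lower at day 14 than at day 3, with a change of -0.90 ± 0.22.

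Neutrophil markers moved with Mmp8 and Mmp9. Of 12 such markers, 8 were in the table and 6 rose at day 3, where 45.9% of all genes rose. Their summed level was 12.5 to 30.3 FPKM in MI day 14 FGF17, 11.7 to 30.1 in MI day 14 control, 83.8 to 397 in MI day 3 FGF17, 179 to 329.9 in MI day 3 control and 4.95 to 29.7 in sham libraries. No marker was at 0 in every library of a group, but Retnlg, Cxcr2, Camp, Ngp and Il1r2 were listed at 0 in some sham libraries. Erythroid markers, a sign of blood in the sample, rose too, 5 of 5 at day 3 against the same 45.9% of all genes. Their sums were 8429 to 14098 FPKM in MI day 3 control and 1085 to 2379 FPKM in sham libraries. The part of either in the Mmp8 and Mmp9 values was not tested.

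Of the stromelysins and the macrophage elastase, Mmp3 and Mmp12 rose at day 3. Mmp3, stromelysin 1, cuts proteoglycans and activates other pro-MMPs. Mmp3 had 20.6, 23.7 and 20.4 FPKM in the MI day 14 FGF17 hearts and 24.4, 16.6 and 13 FPKM in the MI day 14 control hearts. It had 26.1, 84.0, 20.9 and 30.6 FPKM in the MI day 3 FGF17 hearts, 28.7, 22.2, 44.9 and 25.5 FPKM in the MI day 3 control hearts and 11.5, 14.5, 9.09 and 12.3 FPKM in the sham hearts. Day 3 libraries all exceeded sham, with MI day 3 FGF17 library 2 far above the rest. It rose at day 3 by 1.28 ± 0.33 (adjusted p = 0.00265), and at day 14 its change was 0.55 ± 0.35, with an adjusted p of 0.208. Mmp3 was also the second most abundant MMP in sham.

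Mmp12, the macrophage elastase, rose at both days. Mmp12 had 4.43, 2.66 and 1.90 FPKM in the MI day 14 FGF17 hearts and 2.20, 2.08 and 2.45 FPKM in the MI day 14 control hearts. It had 4.37, 3.63, 4.37 and 3.19 FPKM in the MI day 3 FGF17 hearts, 5.08, 8.76, 6.48 and 3.95 FPKM in the MI day 3 control hearts and 0.135, 0.341, 0.258 and 0.344 FPKM in the sham hearts. No MI library overlapped sham. The changes were 1.84 ± 0.23 (adjusted p = 6.77e-06) at day 14 and 3.05 ± 0.21 (adjusted p = 2.04e-09) at day 3 against sham, and -1.21 ± 0.23 (adjusted p = 0.00071) for day 14 against day 3. Of 14 monocyte and macrophage markers, 13 were in the table and 13 rose at each day. Among all genes, 41.0% rose at day 14 and 45.9% at day 3. These markers summed to 875 to 1337 FPKM in MI day 14 control, 1523 to 1804 FPKM in MI day 3 control and 282 to 309 FPKM in sham libraries. None was at 0 in any library, and their part in the Mmp12 values was not tested. Mmp11, stromelysin 3, passed the test at neither day, with changes of 0.30 ± 0.29 and 0.09 ± 0.26 against sham at day 14 and day 3.

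Mmp13, Mmp12, Mmp3, Mmp8 and Mmp27 lie in this order on the plus strand of chromosome 9, from 7272514 to 7581885 in GRCm38, over 309372 bases. They are the genes of this stretch that are members here. Mmp1b, which overlaps Mmp12 on the other strand, is not among the genes measured. This is part of the MMP gene cluster. All 5 rose at day 3 against sham, where 29 of the 42 tested members and 45.9% of all genes rose. Mmp8, Mmp13 and Mmp27 needed their day 3 libraries to pass the filter. The counts at day 3 and between the days are therefore partly fixed by it. At day 14, 2 of 5 (Mmp12 and Mmp8) rose against sham, near the 41.0% of all genes. The Mmp8 call at day 14 was lost in 18 of 28 settings. Between the days, 4 of 5 were lower at day 14, where 18.3% of all genes were, and the change of Mmp3 was -0.73 ± 0.35 (adjusted p = 0.132). With MI day 3 FGF17 library 2 left out, the adjusted p of this Mmp3 change was 0.0247. That library is in neither group compared and acts only through the spread estimated over all groups.

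Of the tested membrane-bound MMPs, Mmp14 rose at both days. Mmp14 (MT1-MMP, ENSMUSG00000000957.11, chromosome 14, 54431612 to 54445364, plus strand) cuts fibrillar collagen at the cell surface and activates pro-MMP2. Mmp14 had 9.37, 8.26 and 8.21 FPKM in the MI day 14 FGF17 hearts and 14.8, 11.7 and 9.71 FPKM in the MI day 14 control hearts. It had 21.9, 21.5, 17.8 and 21.2 FPKM in the MI day 3 FGF17 hearts, 20.8, 19.7, 19.5 and 23.0 FPKM in the MI day 3 control hearts and 2.50, 2.74, 2.76 and 3.11 FPKM in the sham hearts. The 3 times were separate in the control libraries, day 3 highest and sham lowest. Its log2 change was 1.92 ± 0.12 (adjusted p = 4.25e-09) at day 14 and 2.70 ± 0.11 (adjusted p = 3.3e-12) at day 3 against sham, and -0.77 ± 0.12 (adjusted p = 9.4e-05) between the days. Mmp2, whose precursor it activates, was by contrast higher at day 14 than at day 3.

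Mmp15 (MT2-MMP) was the 1 tested Mmp gene called lower than sham. Mmp15 had 9.88, 13.2 and 16.1 FPKM in the MI day 14 FGF17 hearts and 9.36, 11.1 and 11.8 FPKM in the MI day 14 control hearts. It had 9.26, 7.80, 8.85 and 7.96 FPKM in the MI day 3 FGF17 hearts, 8.94, 6.66, 5.75 and 9.76 FPKM in the MI day 3 control hearts and 8.34, 9.60, 12.3 and 10.6 FPKM in the sham hearts. The MI day 3 control and sham libraries overlapped. At day 3 its change was -0.39 ± 0.16 (adjusted p = 0.0499), a call at the edge of the threshold that was lost in 18 of 28 settings, for example without MI day 3 control library 3 (adjusted p = 0.180) or without sham library 4 (0.152).

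Of the 4 other MMPs, Mmp19 and Mmp23 rose at both days, Mmp27 at day 3 and Mmp28 at day 14. Mmp19, a secreted MMP of vessel walls and macrophages, was at 4.16 to 6.58 FPKM in MI day 14 control, 7.65 to 10.8 FPKM in MI day 3 control and 1.23 to 2.25 FPKM in sham libraries, and changed by 1.29 ± 0.18 at day 14 and 2.04 ± 0.16 at day 3. Mmp23, an unusual MMP anchored to the membrane by its N-terminal part, was at 7.35 to 11.9 FPKM in MI day 14 control, 6.45 to 8.52 FPKM in MI day 3 control and 1.37 to 2.03 FPKM in sham libraries, and changed by 2.18 ± 0.17 and 1.74 ± 0.15 in the same order. Mmp27 was at 0.183 to 0.308 FPKM in MI day 14 control, 0.669 to 1.23 FPKM in MI day 3 control and 0 to 0.379 FPKM in sham libraries, and rose by 1.25 ± 0.20 at day 3. Mmp28, epilysin, changed by 0.68 ± 0.22 at day 14 (adjusted p = 0.0156), a call lost in 4 of 27 settings. Among them were median-of-ratios scaling (adjusted p = 0.0728) and those without MI day 14 control library 1 (0.0558) or library 2 (0.0731).

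At day 14, 6 of 8 tested ADAMs of the kind with an active site rose, against 41.0% of all genes. At day 3, 7 of the 8 rose, against 45.9%. Adam8 (ENSMUSG00000025473.16, chromosome 7, 139978932 to 139992562, minus strand), a protease of leukocytes, had the largest change of them at day 3. Adam8 had 2.01, 1.22 and 2.16 FPKM in the MI day 14 FGF17 hearts and 1.95, 1.24 and 1.33 FPKM in the MI day 14 control hearts. It had 12.2, 13.9, 9.85 and 13.8 FPKM in the MI day 3 FGF17 hearts, 14.3, 14.2, 14.7 and 11.7 FPKM in the MI day 3 control hearts and 0.396, 0.309, 0.284 and 0.393 FPKM in the sham hearts. Day 3 libraries stood far above both other times, and the day 14 libraries above sham. The change was 1.23 ± 0.16 (adjusted p = 9.27e-06) at day 14 and 4.07 ± 0.15 (adjusted p = 1.05e-12) at day 3 against sham, and -2.83 ± 0.16 (adjusted p = 3.85e-09) for day 14 against day 3.

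Adam12 (meltrin alpha, ENSMUSG00000054555.11, chromosome 7, 133883199 to 134232146, minus strand), found in myofibroblasts and regenerating muscle, was nearly undetected in sham. Adam12 had 1.25, 0.509 and 0.263 FPKM in the MI day 14 FGF17 hearts and 1.59, 0.873 and 0.865 FPKM in the MI day 14 control hearts. It had 4.28, 4.11, 3.12 and 4.61 FPKM in the MI day 3 FGF17 hearts, 4.16, 4.04, 5.25 and 2.73 FPKM in the MI day 3 control hearts and 0.0780, 0.0934, 0.0743 and 0.0293 FPKM in the sham hearts. No MI library overlapped sham. It rose by 1.47 ± 0.24 (adjusted p = 9.16e-05) at day 14 and 2.97 ± 0.22 (adjusted p = 4.69e-09) at day 3.

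Adam10 and Adam17 encode the main sheddases, ADAM10 of Notch and cadherins and ADAM17 of TNF and of EGF receptor ligands. Adam10 had 24.1, 18.4 and 16.9 FPKM in the MI day 14 FGF17 hearts and 32.0, 27.4 and 24.0 FPKM in the MI day 14 control hearts. It had 14.1, 30.6, 31.2 and 32.8 FPKM in the MI day 3 FGF17 hearts, 36.8, 38.0, 41.6 and 33.1 FPKM in the MI day 3 control hearts and 15.5, 14.5, 14.1 and 14.4 FPKM in the sham hearts. All MI control libraries exceeded sham, and MI day 3 FGF17 library 1 lay within the sham range. The change of Adam10 was 0.90 ± 0.21 (adjusted p = 0.00243) at day 14 and 1.32 ± 0.20 (adjusted p = 2.04e-05) at day 3.

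For the other sheddase, Adam17 had 10.8, 9.33 and 9.42 FPKM in the MI day 14 FGF17 hearts and 12.7, 11.2 and 9.19 FPKM in the MI day 14 control hearts. It had 12.1, 11.6, 12.0 and 12.3 FPKM in the MI day 3 FGF17 hearts, 13, 14.0, 13.6 and 13.8 FPKM in the MI day 3 control hearts and 7.46, 7.41, 8.01 and 7.83 FPKM in the sham hearts. The MI libraries of both days lay above sham. Adam17 changed by 0.49 ± 0.09 (adjusted p = 0.000304) at day 14 and 0.79 ± 0.08 (adjusted p = 3.84e-07) at day 3. The day 14 against day 3 change was -0.30 ± 0.09 (adjusted p = 0.0192), a call lost in 3 of 28 settings. Among them were those without MI day 14 control library 4 (adjusted p = 0.146) or with mitochondrially encoded genes left out (0.0789). Adam17 shares part of its locus with Iah1 on the other strand.

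Adam9, Adam15 and Adam19 were the remaining ADAMs that rose. Adam9, a widely expressed sheddase, was the most abundant ADAM, with 35.0 ± 5.57 FPKM in MI day 14 control (n = 3), 44.5 ± 5.28 in MI day 3 control (n = 4) and 18.8 ± 0.410 in sham hearts (n = 4). Its change was 0.87 ± 0.12 (adjusted p = 1.71e-05) at day 14 and 1.21 ± 0.11 (adjusted p = 5.19e-08) at day 3 against sham. Adam15, an ADAM with an integrin-binding site, rose by 0.58 ± 0.14 at day 14 and by 0.37 ± 0.13 (adjusted p = 0.0216) at day 3, the second of which was 0.07 under median-of-ratios scaling (adjusted p = 0.583) and 0.18 with mitochondrially encoded genes left out (0.182). That call was also lost without MI day 3 control library 4 (adjusted p = 0.0874) or sham library 1 (0.0579). Adam19 (meltrin beta), with a role in heart valve development, rose by 0.77 ± 0.10 (adjusted p = 3.7e-06) at day 3 and changed by 0.25 ± 0.11 at day 14, not past the threshold.

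Adam1a, known as fertilin alpha of sperm, was at 0.956 to 1.3 FPKM in MI day 14 control, 0.376 to 0.883 FPKM in MI day 3 control and 0.692 to 0.919 FPKM in sham libraries and passed the test against sham at neither day. Its locus overlaps Gm42878 on the same strand and Tmem116 on the other. Adam11 and Adam22 lack an active zinc site, and ADAM22 is known as a receptor of neurons. Adam11 passed at neither day. Adam22 was at 0.686 to 0.794 FPKM in MI day 14 control, 0.662 to 0.824 FPKM in MI day 3 control and 0.785 to 1.2 FPKM in sham libraries, and its change at day 3 was -0.30 ± 0.12 (adjusted p = 0.0399), lost in 7 of 27 settings, among them without sham library 1 (adjusted p = 0.112).

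Of the 6 proteoglycan-cutting ADAMTS genes, which encode the versicanases and aggrecanases, 5 rose at day 14 and 5 at day 3. This compares with 41.0% and 45.9% of all genes. Adamts4 (ENSMUSG00000006403.13, chromosome 1, 171250421 to 171260637, plus strand), an aggrecanase and versicanase, changed most at day 3. Adamts4 had 0.304, 0.0924 and 0.269 FPKM in the MI day 14 FGF17 hearts and 1.23, 0.795 and 0.687 FPKM in the MI day 14 control hearts. It had 4.82, 6.12, 4.98 and 6.41 FPKM in the MI day 3 FGF17 hearts, 6.98, 5.34, 7.03 and 5.47 FPKM in the MI day 3 control hearts and 0.0254, 0.247, 0.0897 and 0.0260 FPKM in the sham hearts. The day 3 libraries stood apart above all others, and the MI day 14 FGF17 libraries overlapped sham while the MI day 14 control libraries did not. The change was 1.23 ± 0.17 (adjusted p = 1.78e-05) at day 14 and 3.49 ± 0.16 (adjusted p = 1.21e-11) at day 3 against sham, and -2.26 ± 0.17 (adjusted p = 6.24e-08) between the days.

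Adamts5 (ENSMUSG00000022894.5, chromosome 16, 85858170 to 85901125, minus strand), the other main aggrecanase, rose at both days. Adamts5 had 7.62, 6.26 and 5.91 FPKM in the MI day 14 FGF17 hearts and 10.2, 9.14 and 8.01 FPKM in the MI day 14 control hearts. It had 7.90, 9.00, 8.26 and 8.99 FPKM in the MI day 3 FGF17 hearts, 7.05, 7.45, 9.67 and 6.62 FPKM in the MI day 3 control hearts and 4.60, 4.32, 4.57 and 4.58 FPKM in the sham hearts. Sham was the lowest group, with no overlap. It rose by 0.93 ± 0.12 (adjusted p = 7.05e-06) at day 14 and 0.69 ± 0.11 (adjusted p = 3.09e-05) at day 3.

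Adamts8 (ENSMUSG00000031994.13, chromosome 9, 30942562 to 30963838, plus strand), a proteoglycanase that also limits angiogenesis, varied widely after MI. Adamts8 had 0.765, 2.16 and 0.859 FPKM in the MI day 14 FGF17 hearts and 6.73, 7.61 and 2.54 FPKM in the MI day 14 control hearts. It had 3.58, 0.863, 2.75 and 1.71 FPKM in the MI day 3 FGF17 hearts, 1.75, 6.60, 3.98 and 5.20 FPKM in the MI day 3 control hearts and 0.439, 0.342, 0.408 and 0.470 FPKM in the sham hearts. The MI libraries of a group differed by several times, yet none fell within the sham range. The change was 2.62 ± 0.42 (adjusted p = 7.18e-05) at day 14 and 2.30 ± 0.39 (adjusted p = 6.5e-05) at day 3. Adamts1, a versicanase, was the most abundant ADAMTS in sham at 8.08 to 15.6 FPKM, and changed by 0.68 ± 0.18 at day 14, a call lost under median-of-ratios scaling (adjusted p = 0.0633), and by 0.86 ± 0.16 at day 3. Adamts9 changed by 0.84 ± 0.13 and 0.96 ± 0.12 in the same order, while Adamts15 passed the threshold at neither day, with 0.01 ± 0.19 and 0.04 ± 0.17.

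Adamts2 (ENSMUSG00000036545.8, chromosome 11, 50602084 to 50807573, plus strand), which removes the N-propeptide of procollagens I, II and III, was the 1 tested gene of the procollagen N-propeptidases. Adamts2 had 11.5, 7.91 and 15.2 FPKM in the MI day 14 FGF17 hearts and 22.5, 22.0 and 15.3 FPKM in the MI day 14 control hearts. It had 11.4, 10.7, 10.3 and 11.8 FPKM in the MI day 3 FGF17 hearts, 9.91, 11.0, 11.5 and 14.3 FPKM in the MI day 3 control hearts and 1.90, 1.88, 2.25 and 2.33 FPKM in the sham hearts. All MI libraries exceeded sham, and all day 14 control libraries exceeded all day 3 control libraries. It rose by 2.96 ± 0.18 (adjusted p = 2.98e-09) at day 14 and 2.22 ± 0.16 (adjusted p = 3.68e-09) at day 3, and was higher at day 14 than at day 3, by 0.74 ± 0.18 (adjusted p = 0.00428). Its substrates rose as well, Col1a1 by 3.99 ± 0.20 and Col3a1 by 4.37 ± 0.19 at day 14.

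Among the other ADAMTS genes, Adamts6, Adamts10 and Adamts12 rose at day 14. Adamts10, a fibrillin-binding protease, was at 9.51 to 9.88 FPKM in MI day 14 control, 4.48 to 5.80 in MI day 3 control and 3.81 to 4.61 in sham libraries, with changes of 1.14 ± 0.12 at day 14 and 0.23 ± 0.11 at day 3, the second not past the threshold. Adamts12, which cuts the matrix protein COMP, was at 1.85 to 2.70 FPKM in MI day 14 control, 1.81 to 2.84 in MI day 3 control and 0.191 to 0.451 in sham libraries, and rose by 1.80 ± 0.16 and 1.86 ± 0.14. Adamts6 rose by 0.80 ± 0.13 and 0.77 ± 0.12 in the same order. Adamts7, the other COMP-cutting member, changed by -0.02 ± 0.19 and 0.05 ± 0.18 and passed at neither day.

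Of the 4 ADAMTS-like genes, 3 rose at day 14, where 41.0% of all genes did, and 2 at day 3, which is near the 45.9% of all genes. Adamtsl2 (ENSMUSG00000036040.14, chromosome 2, 27079379 to 27108981, plus strand) encodes a glycoprotein of microfibrils that binds fibrillin 1 and the latent TGF-beta binding protein LTBP1, and had the largest change of all members at day 14. Adamtsl2 had 6.46, 3.74 and 12.8 FPKM in the MI day 14 FGF17 hearts and 14.8, 15.9 and 9.76 FPKM in the MI day 14 control hearts. It had 2.70, 1.53, 2.66 and 2.39 FPKM in the MI day 3 FGF17 hearts, 1.43, 2.46, 1.53 and 2.73 FPKM in the MI day 3 control hearts and 0.879, 0.706, 0.815 and 0.833 FPKM in the sham hearts. Each day 14 library lay above every day 3 library, and each MI library above sham. The change was 3.39 ± 0.29 (adjusted p = 1.28e-07) at day 14 and 0.92 ± 0.27 (adjusted p = 0.00739) at day 3 against sham, and 2.47 ± 0.29 (adjusted p = 7.14e-06) between the days. Adamtsl3 rose by 1.31 ± 0.16 at day 14 and 0.45 ± 0.15 at day 3, the second of which was 0.22 under median-of-ratios scaling (adjusted p = 0.178) and 0.30 with mitochondrially encoded genes left out (0.0794). That call was also lost without sham library 1 (adjusted p = 0.0512), sham library 2 (0.0563) or MI day 3 control library 2 (0.0529). Adamtsl4, another fibrillin-binding member, rose by 0.61 ± 0.12 at day 14. Adamtsl5 passed at neither day.

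**Figure D4:**
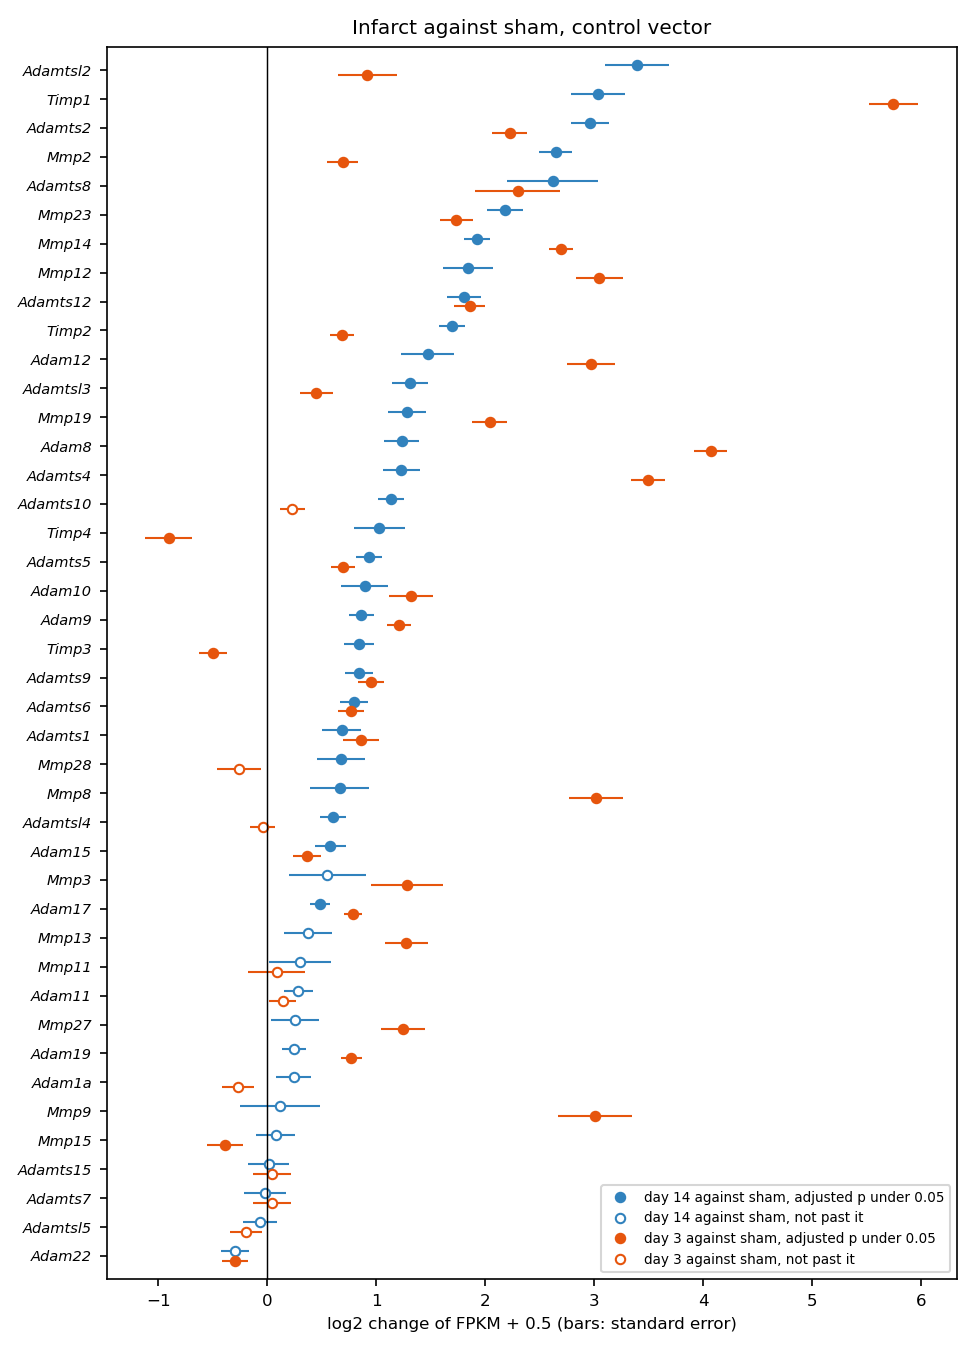
Log2 change of FPKM + 0.5 with its standard error for the 42 tested members, MI day 14 against sham (blue) and MI day 3 against sham (orange), both with the control vector. Filled points have an adjusted p under 0.05. Timp1, Adam8, Adamts4, Mmp9 and Mmp8 lie further right at day 3, and Adamtsl2, Mmp2, Timp2, Timp3 and Timp4 further right at day 14.

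Compared directly, 11 members were higher at day 14 than at day 3 and 14 were lower, where 11.2% of all genes were higher and 18.3% lower, and the median was -0.02 for the members and for all genes alike. With the mitochondrially encoded genes left out and the libraries rescaled, 2002 genes were higher and 1729 lower, against 1347 and 2208 as reported, and 13 members were higher and 12 lower. Higher at day 14 were 3 of 4 TIMPs, 3 of 4 tested ADAMTS-like genes and 2 of 11 tested Adamts genes, with Mmp2, Mmp28 and Adam1a. Lower were 7 of 13 tested Mmp genes, 5 of 10 tested Adam genes, Adamts4 and Timp1. The largest falls were those of Mmp9, Adam8 and Timp1, and the largest rises those of Adamtsl2, Mmp2 and Timp4, all given above. The call of Adam9, with -0.35 ± 0.12 and an adjusted p of 0.0362, was lost in 9 of 28 settings, with adjusted p up to 0.23. Among them were those without MI day 14 control library 2 or 4 or MI day 3 control library 2, 3 or 4. The Adam1a call, with 0.51 ± 0.16 and an adjusted p of 0.0234, was lost in 5 of 27 settings. Among them were those without MI day 14 control library 2 (adjusted p = 0.116) or MI day 3 control library 2 (0.0757) or 3 (0.0519).

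Among fibroblast markers, 8 of 9 rose at day 14 and 7 of 9 at day 3 against sham, while 1 fell at day 3. Between the days, 4 were higher at day 14 and 1 was lower, with a median of 0.19. Their summed levels were 1150.2 to 1329 FPKM in MI day 14 control, 683 to 810.3 FPKM in MI day 3 control and 611 to 674 FPKM in sham libraries. Among all genes, 41.0% rose and 9.00% fell at day 14 against sham, and 45.9% rose and 15.0% fell at day 3. Cardiomyocyte markers fell, 6 of 9 at day 14 and 7 of 9 at day 3, with sums of 6753 to 8513, 5220.2 to 6440.0 and 9612 to 10391 FPKM in MI day 14 control, MI day 3 control and sham libraries. Markers of cartilage-like matrix cells rose in 5 of 6 cases at day 14, with sums of 156 to 199 FPKM in MI day 14 control, 22.8 to 31.2 FPKM in MI day 3 control and 11.3 to 14.8 FPKM in sham libraries. Of the 7 endothelial markers, 4 rose at day 14, and at day 3 1 rose and 1 fell. Of the 6 smooth muscle and pericyte markers, 1 rose at day 14, and at day 3 1 rose and 4 fell. All 4 adipocyte markers rose at day 14 and 0 at day 3, and of 3 tested skeletal muscle markers 2 rose at day 14 and 1 fell at day 3. Apart from Myh1 of skeletal muscle and the neutrophil markers named above, no listed marker was at 0 in any library. The part of these cell types in the members' values was not tested. With all 9 cardiomyocyte markers above 0 in every library, the data go with the labelled tissue.

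Genes that activate or restrain the proteases outside the TIMPs moved as well. Of 16 tested, 13 rose and 1 fell at day 14 against sham, where 41.0% of all genes rose and 9.00% fell. At day 3, 12 rose and 2 fell, where 45.9% of all genes rose and 15.0% fell. The medians were 1.14 and 0.64 against 0.25 for all genes. Plau, the urokinase that starts the plasmin cascade, rose by 2.72 ± 0.10 at day 3 and its receptor Plaur by 2.30 ± 0.12. At day 14 Thbs1, thrombospondin 1, was up by 2.80 ± 0.21, Serpine2 by 1.37 ± 0.14 and Lrp1, the receptor that clears MMPs and their complexes, by 1.56 ± 0.17. Of 7 tested partners of ADAM10 and ADAM17, 6 rose at each day, among them Rhbdf2 (0.71 ± 0.09 at day 3), which carries ADAM17 to the cell surface. Of the astacin group, Bmp1, Pcolce and Pcolce2 all rose at both days, Bmp1, the procollagen C-proteinase, by 1.77 ± 0.13 at day 14 and 1.67 ± 0.12 at day 3.

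Of 24 tested substrates, 19 rose and 1 fell at day 14 and 21 rose and 2 fell at day 3, with medians of 0.95 and 1.07. Fn1, fibronectin, rose by 4.09 ± 0.23 and 4.48 ± 0.22 at day 14 and day 3. Eln, elastin, was higher at day 14 than at day 3, by 2.76 ± 0.31, whereas Tnf, shed by ADAM17, was lower, with a change of -1.22 ± 0.15. Of 12 tested transcription factors known to drive MMP genes, 6 rose at day 14 and 8 at day 3 against sham, where 41.0% and 45.9% of all genes rose. The medians of this list were 0.34 at day 14, near the 0.25 of all genes, and 0.73 at day 3. Runx1 rose by 1.41 ± 0.19 at day 14 and 1.65 ± 0.18 at day 3. The AP-1 members Junb and Fosl2 rose at day 3 by 1.27 ± 0.15 and 0.97 ± 0.09, and Fosl1 was lower at day 14 than at day 3 (-1.69 ± 0.24).

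The comparison of the Fgf17 vector with the control vector was made in MI hearts only. With no sham group given Fgf17, a changed response to MI and a difference present without MI cannot be told apart. At MI day 14, 10 of 42 members were lower with FGF17 and 0 higher, where 5.98% of all genes were lower and 3.63% higher. The median change was -0.16 for the members and -0.04 for all genes. The 10 are Timp1, Timp2, Mmp2, Mmp14, Adam9, Adamts2, Adamts4, Adamts5, Adamts8 and Adamts12. This comparison shares the MI day 14 control libraries with that of MI day 14 against sham.

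Among the inhibitors, the FGF17 libraries of Timp1 reached 18.9 to 31.1 FPKM, against 30.7 to 75.6 FPKM in control libraries, overlapping by 1 library on each side. The change of Timp1 was -1.04 ± 0.26 (adjusted p = 0.0214). Timp2 had 59.2 to 81.5 FPKM with FGF17 and 92.7 to 114 FPKM with the control vector, with no overlap and a change of -0.49 ± 0.13 (adjusted p = 0.0241). Timp3 and Timp4 did not overlap either but missed the threshold, with -0.44 ± 0.15 (adjusted p = 0.067) and -0.28 ± 0.25 (adjusted p = 0.509).

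Mmp2 had 65.2 ± 16.5 FPKM with FGF17 and 96.2 ± 9.90 FPKM with the control vector (SD, n = 3 each), without overlap and with a change of -0.59 ± 0.17 (adjusted p = 0.0337). Mmp14 had 8.61 ± 0.657 FPKM with FGF17 and 12.1 ± 2.55 FPKM with the control vector (n = 3 each), also without overlap, and changed by -0.45 ± 0.13 (adjusted p = 0.0349). Of the 13 tested Mmp genes these 2 were called, and the others lay between -0.45 ± 0.18 for Mmp23 and 0.30 ± 0.38 for Mmp3.

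Of 11 tested Adamts genes, 5 were lower, where 5.98% of all genes were lower. Adamts8 changed most, with 1.26 ± 0.780 FPKM with FGF17 and 5.63 ± 2.71 FPKM with the control vector (n = 3 each) and a change of -1.76 ± 0.45 (adjusted p = 0.0215). Adamts12 had 1.12, 0.644 and 0.808 FPKM with FGF17, against 2.70, 2.17 and 1.85 FPKM with the control vector, a change of -1.02 ± 0.17 (adjusted p = 0.00265). Adamts4 changed by -0.95 ± 0.18 (adjusted p = 0.00574) and Adamts2 by -0.79 ± 0.19 (adjusted p = 0.0174). Adamts5 changed by -0.44 ± 0.13 (adjusted p = 0.0359). Adam9 had 29.0, 24.5 and 23.1 FPKM with FGF17 and 39.6, 36.5 and 28.8 FPKM with the control vector, a change of -0.44 ± 0.13 (adjusted p = 0.0386). In Adamts2, Adamts8, Adamts12, Adamts4 and Adamts5 no FGF17 library exceeded the lowest control library, and in Adam9 library 1 with FGF17 did. Adamtsl2 changed by -0.91 ± 0.31 (adjusted p = 0.0759), with libraries that overlap.

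These calls lean on few libraries. Members called were 2 without MI day 14 control library 1, 2 without library 2 and 15 without library 4 of the same group, and 3 and 6 without MI day 14 FGF17 libraries 3 and 4. They were 5 with each library rescaled to a total of 1000000, under which 422 genes were higher and 387 lower against 438 and 721 as reported, and 0 in a fit of only the 2 groups compared, where 61 genes were called in place of 1159. All 10 were lower in every setting that tested them. The calls of Adamts12 and Adamts4 were lost in that fit alone, with adjusted p of 0.0548 and 0.0786.

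**Figure D5:**
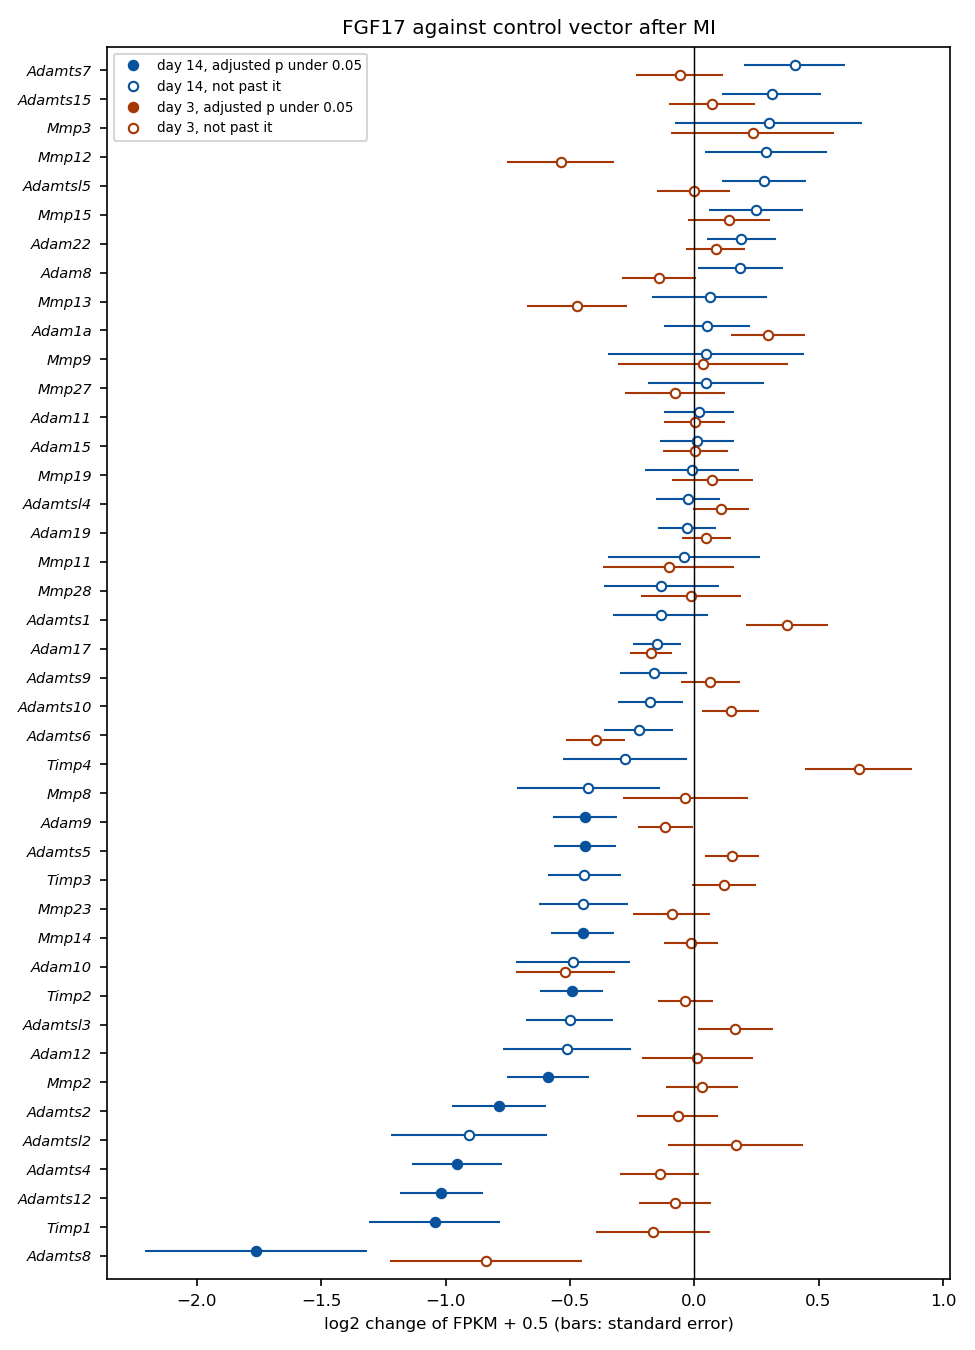
Log2 change of FPKM + 0.5 with its standard error for the 42 tested members, FGF17 against the control vector, at MI day 14 (blue) and MI day 3 (brown). Filled points have an adjusted p under 0.05: 10 at day 14, all to the left of 0, and 0 at day 3.

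Marker levels of other cell types moved between the same libraries. Among all genes tested, 5.98% were lower and 3.63% higher. Cardiomyocyte markers summed to 8724 to 9922 FPKM with FGF17, against 6753 to 8513 FPKM with the control vector at day 14, and 2 of 9 were called higher. Monocyte and macrophage markers summed to 722 to 770.0 FPKM with FGF17 and 875 to 1337 FPKM with the control vector, with 2 of 13 called lower. Fibroblast markers summed to 1064 to 1230.3 FPKM with FGF17 and 1150.2 to 1329 FPKM with the control vector, with 3 of 9 called lower. In each of the endothelial, adipocyte and skeletal muscle lists 1 marker was called lower, and in the neutrophil, erythroid, smooth muscle and pericyte, and cartilage-like lists 0 were called. Adipocyte markers summed to 27.8 to 52.0 FPKM with FGF17 and 62.3 to 105 FPKM with the control vector, without overlap and with a median change of -1.08 over 4 markers. Cartilage-like markers summed to 34.7 to 168 FPKM with FGF17 and 156 to 199 FPKM with the control vector, with a median change of -0.86. Of these, 4 of 6 had an unadjusted p under 0.05 by limma, as did 3219 of the 12052 genes tested. The part of these in the 10 calls was not tested.

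Of the 16 tested genes that activate or restrain the proteases, 7 were lower and 1 higher with FGF17 at day 14. Their median was -0.53, against -0.04 for all genes, where 5.98% were lower and 3.63% higher. Thbs1 changed by -1.38 ± 0.22 and Plau by -0.61 ± 0.11. Of 24 substrates 4 were lower, among them Fn1 (-1.22 ± 0.25) and Fbn1, fibrillin 1 (-1.20 ± 0.20). Of the 3 astacin group genes, Pcolce and Pcolce2, enhancers of procollagen C-proteinase, were lower (-0.64 ± 0.15 and -0.51 ± 0.14). Of the 12 transcription factors, Ets2 (-0.41 ± 0.10), Etv5 (-0.43 ± 0.12) and Runx1 (-0.71 ± 0.21) were lower, and of the 7 partners of ADAM10 and ADAM17 none was called.

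At MI day 3 none of the 42 members passed the threshold between FGF17 and the control vector by limma, where 0.232% of all genes did. An unadjusted p under 0.05 by limma was found in 7 of the 42 members and in 1029 of the 12052 genes tested. The largest changes were -0.84 ± 0.39 (adjusted p = 0.576) in Adamts8 and 0.66 ± 0.21 (adjusted p = 0.308) in Timp4. Adam10 changed by -0.52 ± 0.20 (adjusted p = 0.432). Erythroid markers summed to 2800.4 to 4607 FPKM with FGF17 and 8429 to 14098 FPKM with the control vector at day 3, with 2 of 5 called lower. Monocyte and macrophage markers summed to 1155 to 1491 FPKM with FGF17 and 1523 to 1804 FPKM with the control vector, with 9 of 13 at an unadjusted p under 0.05 by limma. All 4 adipocyte markers were under it too, with a median change of -1.27, while the median of the cardiomyocyte markers was 0.16. No marker outside the erythroid list was called, and the part of these cells in the members' values was not tested.

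The difference between the FGF17 effect at day 14 and that at day 3 was tested as well. By limma it was past the threshold in 0 of 42 members, where 0.365% of all genes passed. An unadjusted p under 0.05 by limma was found in 13 of the 42 members and in 1686 of the 12052 genes tested. All 4 TIMPs were among the 13, with differences of -0.88 ± 0.35 (adjusted p = 0.261) for Timp1, -0.46 ± 0.17 (adjusted p = 0.227) for Timp2, -0.56 ± 0.20 (adjusted p = 0.205) for Timp3 and -0.94 ± 0.33 (adjusted p = 0.205) for Timp4. For Adamts12 the difference was -0.94 ± 0.22 (adjusted p = 0.0691), and it passed without MI day 14 FGF17 library 1 (adjusted p = 0.0428), without MI day 14 control library 4 (0.0344) or with mitochondrially encoded genes left out (0.0466), and in no other setting. The 10 calls at day 14 are therefore not shown to be particular to that day.

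The 5 members below the filter were Adam33, Adamts3, Adamts14, Adamts19 and Mmp17, and were not tested. Adamts14, a procollagen N-propeptidase, ranged over 0.410 to 0.751 FPKM in MI day 14 FGF17, 0.508 to 0.754 in MI day 14 control, 0.690 to 0.863 in MI day 3 FGF17, 0.504 to 0.989 in MI day 3 control and 0.0353 to 0.430 in sham libraries. Mmp17, a membrane MMP with a lipid anchor, ranged over 0.550 to 0.791 FPKM in MI day 14 control, 0.234 to 0.676 in MI day 3 control and 0.211 to 0.453 in sham libraries. Adam33, Adamts3 and Adamts19 stayed at or under 0.873 FPKM in the mean of every group.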

How the data were processed

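RNA was measured by RNA-seq in 18 mouse heart libraries. The deposited values are FPKM per gene for 12988 genes, made by the authors with FastQC 0.11.7, cutadapt 1.17, HISAT2 2.1.0 and StringTie 1.3.3 on build GRCm38, per the submitters' processing notes. These notes give no order of steps, annotation or strand setting. Read totals are not in the table, so depth and counting intervals are unknown.

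Columns were assigned to groups by name. A gene entered the test when 3 or more libraries reached 1 FPKM, and log2(FPKM + 0.5) was fitted with limma 3.58.1 in R 4.3.3, in 1 model of 5 group means with eBayes and a mean-variance trend, two-sided, with Benjamini-Hochberg adjustment over all 12052 genes tested and a threshold of 0.05. The fit was tested on simulated data. FPKM values were not scaled further, so a few abundant genes that take more of the fragments lower all others. Alternatives were 2 other pseudocounts, 2 other filters, 3 rescalings, robust eBayes, a replicate block, a fit of the compared groups alone and leaving out each library.

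Members and gene lists were chosen with earlier results of these data known. Values in every library are given for members the results turn on, and pathway genes are named by the smallest p in a contrast, a few of which are not reported here. ADAMs were split by the zinc-binding motif in translated GENCODE M21 coding sequences. Loci are those of the table, of which 44 of 47 equal GENCODE M21, and promoters are from RefSeq (GRCm38.p6).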

Additional observations from a re-analysis of the deposited data

Results flagged for a closer look

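In groups of 4 libraries, a library was looked at again where its gap to the nearest other library, as a share of the group's range, exceeded Dixon's critical value for 4 libraries. This held in 7 of 141 combinations of member and group, and chance alone flags about 1 in 20 groups. In MI day 3 FGF17, Adam10 was at 14.12 FPKM in library 1, against 30.62 to 32.82 FPKM in the others, and Mmp3 was at 84.04 FPKM in library 2, against 20.88 to 30.64 FPKM in the others. Mmp14 was at 17.82 FPKM in library 3 of the same group, against 21.25 to 21.86 FPKM in the others. In MI day 3 control, library 4 had 11.67 FPKM of Adam8, against 14.22 to 14.72 FPKM in the others, and 8.524 FPKM of Mmp23, against 6.448 to 6.709 FPKM. In sham, Adamts1 was at 15.58 FPKM in library 4, against 8.081 to 9.012 FPKM in the others, and Adamts5 at 4.321 FPKM in library 2, against 4.565 to 4.602 FPKM.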

How the results depend on the processing

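In 28 settings, 18 of which leave out 1 library, no called member changed direction. Of the members called as reported, 26 of 29 at day 14 against sham, 29 of 33 at day 3 against sham and 22 of 25 between the days were called in every setting that tested them, and 0 of 10 between FGF17 and the control vector at day 14. The last count was 5 with libraries rescaled to a total of 1000000, 3 with the replicate block, 0 in a fit of the groups compared alone, and 2 to 15 with 1 library left out. All genes called there were 1159 as reported, 809 rescaled, 700 with the block, 61 in the groups alone and 244 to 1692 with 1 library left out. For the difference of the FGF17 effects, 1 member was called with mitochondrially encoded genes left out and 0 to 1 with 1 library left out, and all genes called were 44 as reported, against 16 with a pseudocount of 0.1, 75 with median-of-ratios scaling, 17 rescaled, 104 without mitochondrially encoded genes, 0 with the block, 10 in the groups alone and 0 to 197 with 1 library left out. For FGF17 at day 3, 28 genes were called as reported and 9 to 41 with 1 library left out. For same-numbered libraries of different groups, deviations from the group mean correlated with r of -0.155 to 0.366 in 29 pairs, over 0.1 in 6. The highest was between library 4 of MI day 14 FGF17 and of MI day 3 control. Libraries with different numbers were not compared, so whether shared numbers pair the libraries is not known. Median-of-ratios scaling moved the mean summed FPKM of sham to 128.9 for TIMPs, against 111.4 as reported, and to 55.35 for MMPs, against 47.87. The cause of these changes was not tested, other than that fewer libraries enter the smaller fits. Without read totals, the values of members under 1 FPKM have no known counting error.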
